A study of Mus musculus with 6 samples.

Results

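A group of 10 genes listed as p53 arrest and feedback targets was followed across macrophage states before and after gamma radiation. The genes were Cdkn1a, Mdm2, Ccng1, Btg2, Plk2, Gadd45a, Sesn1, Sesn2, Zmat3 and Phlda3. They were chosen by name, as the rows of the count tables that carry these symbols, and all 10 were found among the 24062 genes listed. The cells were RAW264.7, a macrophage-like line of mouse origin, although the labels also give bone marrow as the tissue. M0 cells received no polarizing agent, M1 cells received LPS (100 ng/mL) with IFN-γ (20 ng/mL), and M2 cells received IL-4 (20 ng/mL), in both cases over 24 h. RM0, RM1 and RM2 cells were the corresponding states given 10 Gy from a cesium source and then kept for 24 h more. Each condition had 1 library of RNA pooled from 5 wells, with 17894937 to 18870516 counted reads, so no spread between cultures was measured. Whether the non-irradiated cells were kept for the same additional time was not stated, so irradiation and that time cannot be told apart.

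The transcription factor p53 is stabilized after DNA breaks and binds response elements in its target genes. Some targets stop the cell cycle, foremost p21 from Cdkn1a, and others, foremost the ubiquitin ligase Mdm2, return p53 to a low level. In macrophages, LPS and IFN-γ also act on the cell cycle and on several of these genes, so irradiation and polarization are described separately.

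The identity of the cells was checked first. Lyz2, which encodes the lysozyme of macrophages, had 199329 to 580239 counts per library, and Cd68, a lysosomal macrophage protein, had 12059 to 15298. Cd3e of T cells had 0 counts in all 6 libraries, which allows at most 3 counts in each, or 0.168 CPM (counts scaled to library size) by its own total, without TMM scaling, in the shallowest one, and Col1a1 of fibroblasts had 6 counts in M0, 1 in M1, 11 in RM0, 0 in RM1, 5 in M2 and 7 in RM2. Of 6 fibroblast markers, Col1a2 and Col3a1 had 0 counts in all libraries, and the list summed to 6.45 CPM in M0 beside 8.62 in RM0, 43.6 in M1 beside 45.8 in RM1, and 6.70 in M2 beside 10.0 in RM2. Its most abundant gene was Dcn, which encodes decorin, with 113 and 145 counts in M0 and RM0, 627 and 726 in M1 and RM1, and 114 and 177 in M2 and RM2. Lum, which encodes the matrix protein lumican, had 8 and 10 counts in M0 and RM0, 14 and 34 in M1 and RM1, and 16 and 14 in M2 and RM2. It was the one gene of this list past 2-fold in RM1 against M1 (log2 fold change 1.03, interval 0.17 to 2.12). The higher sum in both M1 libraries was almost all Dcn, while Col1a1 was lower there, and the part of Dcn and Lum in the M1 and RM1 results was not tested. Of 6 lymphocyte markers, 3 had 0 counts in every library, and the list summed to at most 6 counts in any of them. Nos2, the inducible nitric oxide synthase of M1 cells, had 14393 counts in M0 beside 22038 in RM0, 169925 in M1 beside 129631 in RM1, and 10749 in M2 beside 14987 in RM2. The 8 M1 markers summed to 3760.1 CPM in M0 beside 5522 in RM0, 18009 in M1 beside 20752 in RM1, and 3647 in M2 beside 6429 in RM2. The largest part of that sum in RM1 was Ptgs2, the inducible cyclooxygenase, with 5014 CPM in M1 and 11920 in RM1. In RM1 against M1, 5 of the 8 markers had a negative log2 fold change, with a median of -0.42 over the list. Cxcl10 (-2.57) and Irf1 (-2.51) were called lower, Ptgs2 (1.25) and Il1b (1.06) were called higher, and their part in the RM1 results was not tested.

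p53 recognizes a response element made of a pair of short palindromic decamers, so the promoters are shown before the values. RefSeq windows of 300 bases on GRCm38.p6, with 250 bases before and 50 after the annotated start, were found for 9 members in 11 windows. The windows were searched on both strands for the p53 decamer, a pattern that is its own reverse complement, and for the p53 full element, 2 adjacent decamers with at most 3 mismatches outside the C and G of each core. A full element can contain a decamer match. A decamer occurred in 5 of the 11 windows and in 8.36% of all 32851 promoter windows, and a full element in 3 of the 11 and in 1.38% of all windows. The 3 windows with a full element and the Mdm2 window with a decamer are printed 5′ to 3′ on the strand of the gene, with the matches in capitals. They lie at chr17:29090729-29091028 (plus strand, the upstream start of Cdkn1a), chr11:40755237-40755536 (minus strand, Ccng1), chr10:41887189-41887488 (plus strand, the downstream of 2 Sesn1 starts) and chr10:117710709-117711008 (minus strand, Mdm2).
Cdkn1a: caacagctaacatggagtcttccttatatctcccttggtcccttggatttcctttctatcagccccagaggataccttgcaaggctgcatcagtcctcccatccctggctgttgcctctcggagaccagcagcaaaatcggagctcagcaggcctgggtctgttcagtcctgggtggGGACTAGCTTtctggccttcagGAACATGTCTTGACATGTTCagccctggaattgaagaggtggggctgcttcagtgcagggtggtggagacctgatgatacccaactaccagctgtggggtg
Ccng1: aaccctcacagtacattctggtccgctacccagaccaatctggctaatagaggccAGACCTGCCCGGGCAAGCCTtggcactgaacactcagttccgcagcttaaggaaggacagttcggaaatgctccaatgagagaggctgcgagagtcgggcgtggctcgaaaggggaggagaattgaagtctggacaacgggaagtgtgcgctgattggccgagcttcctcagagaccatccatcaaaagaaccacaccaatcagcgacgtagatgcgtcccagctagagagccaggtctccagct
Sesn1: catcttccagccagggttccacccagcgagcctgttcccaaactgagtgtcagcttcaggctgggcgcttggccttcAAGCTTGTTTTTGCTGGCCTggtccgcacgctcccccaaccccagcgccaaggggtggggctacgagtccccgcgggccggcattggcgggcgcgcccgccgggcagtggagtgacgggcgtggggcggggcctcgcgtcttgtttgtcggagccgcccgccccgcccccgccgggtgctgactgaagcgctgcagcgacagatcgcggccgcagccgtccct
Mdm2: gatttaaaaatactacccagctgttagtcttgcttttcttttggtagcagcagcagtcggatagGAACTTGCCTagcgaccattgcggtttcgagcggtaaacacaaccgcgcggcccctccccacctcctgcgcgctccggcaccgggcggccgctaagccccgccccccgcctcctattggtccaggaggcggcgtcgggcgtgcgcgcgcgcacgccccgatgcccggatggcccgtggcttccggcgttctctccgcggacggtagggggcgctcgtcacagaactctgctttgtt

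The full element of Cdkn1a began 51 bases before the start (position -51) with 1 mismatch, beside a separate decamer, that of Ccng1 at position -195 with 1 mismatch and that of Sesn1 at position -173 with 3 mismatches. The decamer of Mdm2 began at position -186, and Gadd45a had a decamer at position -40. No match was found in the windows of Btg2, Plk2, Sesn2 and Phlda3, the downstream window of Cdkn1a or the upstream window of Sesn1. This says only that the letters are not in those windows. Zmat3 was the member without a window. A match is a description of sequence, and binding was not measured.

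Levels are given as CPM after TMM scaling, to which orders of the libraries and statements of counting error refer. Levels between genes are given only as mean CPM per kb of the longest coding transcript. On that per-length scale Cdkn1a was the most abundant member, with a mean of 403 CPM per kb over the 6 libraries. Gadd45a followed with 96.6, Mdm2 with 59.8, Plk2 with 56.9 and Ccng1 with 55.0. Sesn2, Btg2, Zmat3 and Phlda3 had 23.4, 21.4, 9.61 and 8.68, and Sesn1 was the lowest with 4.33 CPM per kb. The positions listed for Zmat3 and Gadd45a span only part of each gene, so their places in this order are uncertain. The highest of the 6 libraries was an irradiated one for all 10 members, and for 45.8% of the 11574 genes tested, those with 10 counts or more in 3 or more libraries. That library was RM1 for 6 members, RM2 for 2 and RM0 for 2. Scaled by library totals it was an irradiated one for 9 members, with Sesn1 as the exception, and for 45.5% of genes. The lowest library was M1 for 4 members, M2 for 3, M0 for 2 and RM2 for 1. In bulk RNA, fewer cells that express a gene and less RNA per cell cannot be told apart.

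**Figure D1:**
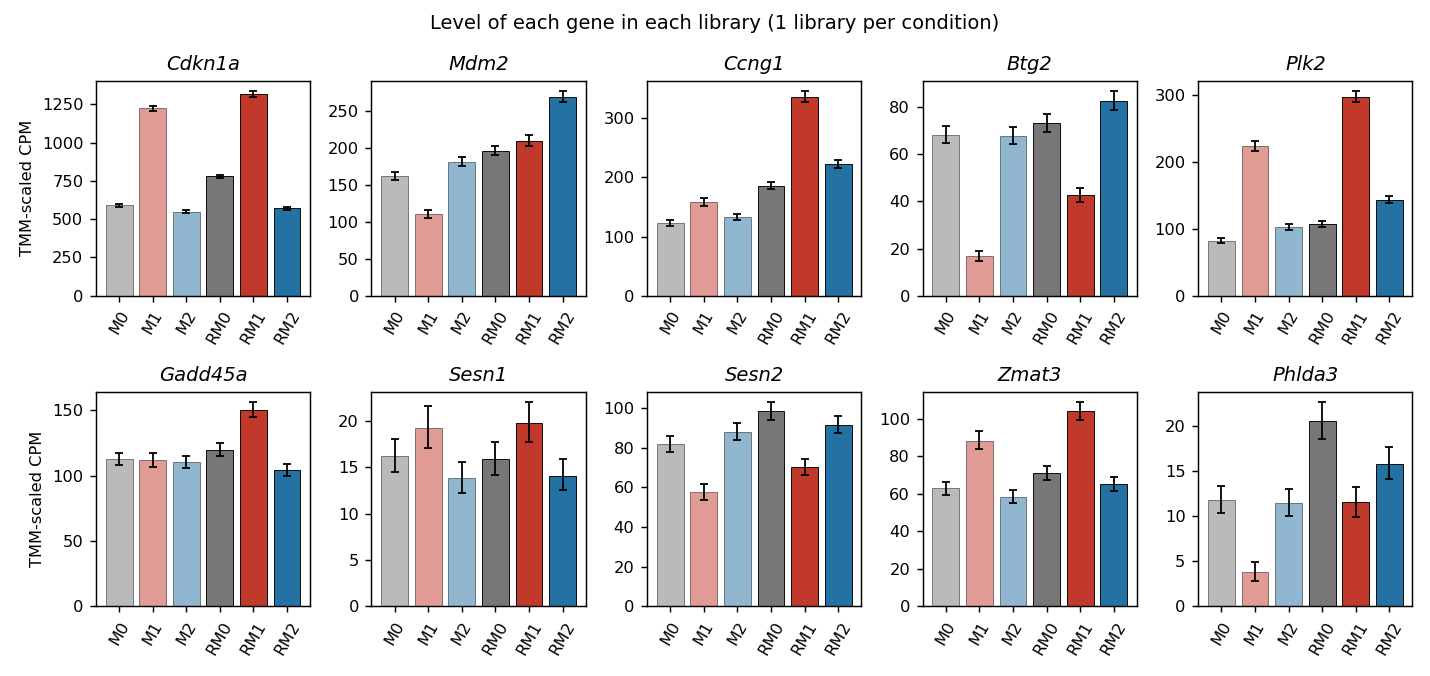
Level of each of the 10 genes in each library (y axis, TMM-scaled CPM from 0, 1 library per condition; pale bars not irradiated, full bars after 10 Gy; error bars, 95% interval for counting error only). Cdkn1a and Plk2 stand highest in M1 and RM1, Btg2 and Phlda3 are lowest in M1, and Ccng1 is highest in RM1 at 337 CPM.

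Among the arrest genes, Cdkn1a (chromosome 17, 29090986 to 29100722, plus strand), which encodes the cyclin-dependent kinase inhibitor p21, had 590 CPM in M0 beside 779 in RM0, 1223 in M1 beside 1318 in RM1, and 547 in M2 beside 571 in RM2. Both M1 libraries were above all others, and each step in the order of the 6 libraries was larger than counting error. Its log2 fold change after irradiation was 0.40 in RM0 against M0 (95% counting interval 0.37 to 0.43), 0.11 in RM1 against M1 (0.08 to 0.14) and 0.06 in RM2 against M2 (0.02 to 0.10). These changes were below 2-fold in all 3 states, and the largest was in unpolarized cells. M1 polarization without radiation was the larger difference, with a log2 fold change of 1.05 (1.02 to 1.09) in M1 against M0 and 0.76 (0.73 to 0.79) in RM1 against RM0. The first passed the 2-fold call, and it did not when counts were scaled by library totals. The antisense transcript AC167363.2 overlaps 7.68% of the annotated Cdkn1a exon bases, and the strand setting of the counting was not given.

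Btg2 (chromosome 1, 134074865 to 134079155, minus strand), an antiproliferative factor that binds a deadenylase complex, had 68.2 CPM in M0 beside 73.4 in RM0, 16.6 in M1 beside 42.6 in RM1, and 68.0 in M2 beside 82.7 in RM2. M1 was the lowest library and RM1 the next, and M2 and M0, and M0 and RM0, were neighbours that did not differ beyond counting error. The log2 fold change was -2.03 (-2.24 to -1.84) in M1 against M0 and 1.35 (1.15 to 1.57) in RM1 against M1, and both passed the 2-fold call. These 2 comparisons share the M1 library. In RM0 against M0 it was 0.11 (-0.00 to 0.21) and in RM2 against M2 it was 0.28 (0.18 to 0.39). RM1 stayed below RM0 by a log2 fold change of -0.78 (-0.91 to -0.65).

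Plk2 (chromosome 13, 110395044 to 110400843, plus strand), a polo-like kinase of the early cell cycle, had 82.2 CPM in M0 beside 107 in RM0, 224 in M1 beside 297 in RM1, and 103 in M2 beside 143 in RM2. It was highest in RM1 and M1, and each irradiated library was above the non-irradiated library of its state. Its log2 fold change after irradiation was 0.38 (0.28 to 0.47) for RM0, 0.41 (0.34 to 0.47) for RM1 and 0.48 (0.39 to 0.56) for RM2. With TMM scaling the differences among these 3 values were within counting error. With library totals the medians of all genes shifted to -0.05, 0.13 and -0.05 in that order, and the RM1 value of Plk2 is then the largest. With M1 polarization it was 1.44 (1.36 to 1.53) without radiation and 1.47 (1.40 to 1.55) after it. Both M1 values passed the 2-fold call. With TMM scaling they differed by 0.03, with an interval of -0.08 to 0.14.

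Gadd45a (chromosome 6, 67036678 to 67037407, minus strand), a stress protein that binds p21 and the clamp protein PCNA, had 112 CPM in M0 beside 120 in RM0, 112 in M1 beside 150 in RM1, and 110 in M2 beside 104 in RM2. With TMM scaling the 3 non-irradiated libraries did not differ beyond counting error, and RM1 was the highest of the 6. Scaled by library totals M1 was lower than M0, with 1654 of 18472101 counts beside 2229 of 18246280. The log2 fold change after irradiation was 0.09 (0.01 to 0.18) for RM0, 0.43 (0.34 to 0.52) for RM1 and -0.09 (-0.17 to 0.00) for RM2. None reached 2-fold. The positions listed span 30.9% of the gene as annotated, and the antisense gene E230016M11Rik overlaps 19.1% of its exon bases, so its counts are less certain than those of the other arrest genes.

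The feedback genes described next are Mdm2 and Ccng1. Mdm2 (chromosome 10, 117688875 to 117710758, minus strand), the ligase that marks p53 for degradation, had 162 CPM in M0 beside 196 in RM0, 110 in M1 beside 210 in RM1, and 181 in M2 beside 269 in RM2. With TMM scaling M1 was the lowest library, the 3 irradiated libraries were the highest, and all neighbours in the order differed beyond counting error. Scaled by library totals RM1 was below M2, with 3501 of 18870516 counts beside 3673 of 17894937. The log2 fold change after irradiation was 0.28 (0.21 to 0.35) for RM0, 0.93 (0.85 to 1.02) for RM1 and 0.57 (0.51 to 0.63) for RM2. The value in RM1 was just under 2-fold and passed the call when counts were scaled by library totals. Without radiation Mdm2 was lower in M1 than in M0, with a log2 fold change of -0.55 (-0.64 to -0.47). After radiation RM1 and RM0 were close, at 0.10 (0.03 to 0.16), and at -0.15 when scaled by library totals.

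Ccng1 (chromosome 11, 40748552 to 40755286, minus strand) encodes cyclin G1, which brings a phosphatase to Mdm2. It had 123 CPM in M0 beside 186 in RM0, 158 in M1 beside 337 in RM1, and 134 in M2 beside 223 in RM2. All 3 irradiated libraries were above all 3 non-irradiated ones. For Mdm2 that order held with TMM scaling but not with library totals. The log2 fold change of Ccng1 after irradiation was 0.60 (0.52 to 0.67) for RM0, 1.09 (1.02 to 1.16) for RM1 and 0.74 (0.67 to 0.81) for RM2. The RM1 value passed the 2-fold call. The transcript has a GC content of 40.8%, and in RM1 against M1 the median log2 fold change was 0.24 over the genes below a GC content of 45.4% (the lower quartile) and -0.23 over those above 54.9% (the upper quartile). With the GC trend of each library removed, Ccng1 had 0.68 in RM0, 0.79 in RM1 and 0.57 in RM2, so it stayed higher in each state and no longer passed the 2-fold call in RM1.

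Phlda3 (chromosome 1, 135766085 to 135769134, plus strand), a small protein that keeps the kinase Akt from the membrane, had 11.7 CPM in M0 beside 20.5 in RM0, 3.79 in M1 beside 11.5 in RM1, and 11.4 in M2 beside 15.8 in RM2. M1 was again the lowest library, with 56 counts, while RM0 was the highest, with 402. M2, RM1 and M0 were neighbours within counting error. After irradiation the log2 fold change was 0.80 (0.57 to 1.04) for RM0, 1.58 (1.17 to 2.06) for RM1 and 0.47 (0.22 to 0.72) for RM2. The RM1 value passed the 2-fold call, as did that of M1 against M0, -1.61 (-2.08 to -1.21), and the 2 share the M1 library. Its GC content was 62.6%, and with the GC trend removed the RM1 value was 1.84.

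Zmat3 (chromosome 3, minus strand), a zinc finger protein that binds RNA, had 62.9 CPM in M0 beside 71.1 in RM0, 88.3 in M1 beside 104 in RM1, and 58.5 in M2 beside 65.0 in RM2. RM1 and M1 were the highest libraries, and of the lower ones M2 and M0, and M0 and RM2, were neighbours within counting error. Its log2 fold change after irradiation was 0.18 (0.07 to 0.29) for RM0, 0.23 (0.13 to 0.34) for RM1 and 0.15 (0.04 to 0.27) for RM2. The listed positions, 32365504 to 32365665, span 0.519% of the gene as annotated, so where in the gene its reads were counted is not known.

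The sestrins restrain the growth kinase mTOR under stress. Sesn1 (chromosome 10, 41810574 to 41908436, plus strand) had 16.2 CPM in M0 beside 15.9 in RM0, 19.2 in M1 beside 19.8 in RM1, and 13.8 in M2 beside 14.1 in RM2. Its log2 fold change after irradiation was -0.03 (-0.26 to 0.20) in RM0, 0.04 (-0.19 to 0.28) in RM1 and 0.03 (-0.21 to 0.28) in RM2, so a change was not detectable at 280 to 330 counts per library. Each library lay next to its irradiated counterpart in the order of levels. Sesn2 (chromosome 4, 132492807 to 132510456, minus strand) had 81.8 CPM in M0 beside 98.4 in RM0, 57.5 in M1 beside 70.3 in RM1, and 88.0 in M2 beside 91.4 in RM2. Both M1 libraries were the lowest. After irradiation its log2 fold change was 0.27 (0.17 to 0.36) for RM0, 0.29 (0.16 to 0.42) for RM1 and 0.05 (-0.04 to 0.15) for RM2.

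Counted over the list, 0 of 10 members passed the 2-fold call in RM0 against M0, where 1.54% of 11688 genes did. In RM1 against M1 the call was passed by 3 members, Btg2, Ccng1 and Phlda3, all higher, against 5.34% of 11443 genes called and 3.08% called higher. In RM2 against M2 it was passed by 0 members and 1.97% of 11801 genes. These calls compare single libraries and carry no p-value. The members had a median log2 fold change of 0.27 for RM0, 0.42 for RM1 and 0.22 for RM2, beside -0.00, -0.01 and -0.00 over all genes tested. The log2 fold change was positive in all 3 states for 8 members, the exceptions being Gadd45a and Sesn1, and for 19.5% of 11174 genes. With TMM scaling the counting interval was also above 0 in all 3 states for 6 members, and for 5.07% of genes. These 6 were Cdkn1a, Mdm2, Ccng1, Plk2, Zmat3 and Phlda3. With library totals Cdkn1a was nearly level in RM2 against M2, at 11324 of 18154365 counts beside 11102 of 17894937. By mean count the members lay between percentile 67.2 (Phlda3) and 99.4 (Cdkn1a) of all 24062 genes listed. Of those genes, 8137 had 0 counts in every library, so this rank does not refer to the 11174 genes compared. Intervals are narrower at higher counts, and the shares were not matched for counts.

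**Figure D2:**
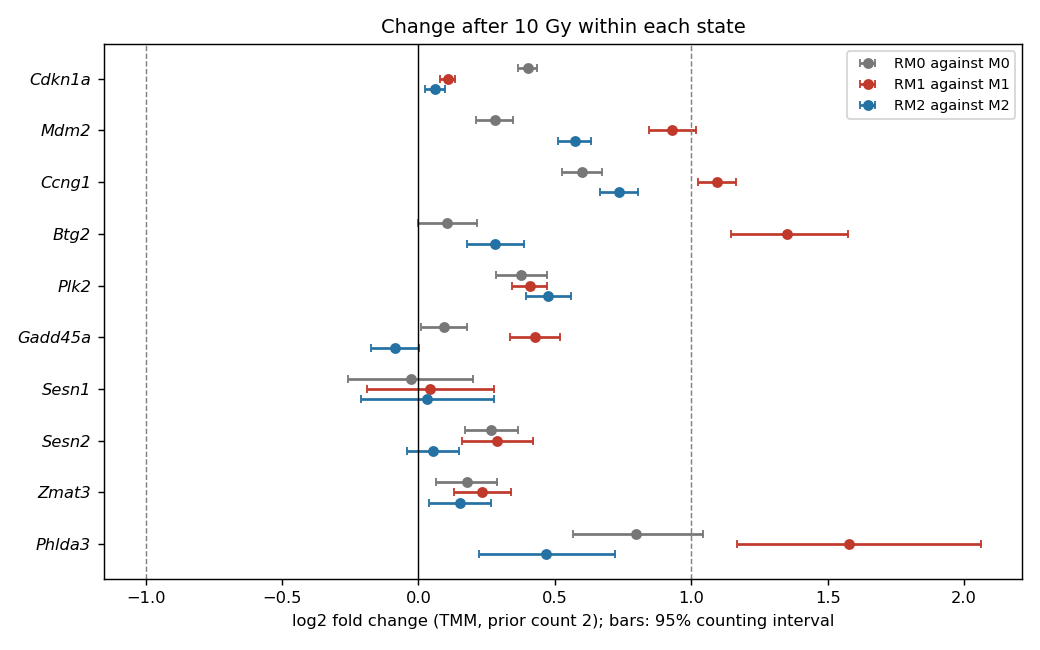
Log2 fold change of each gene after 10 Gy within M0, M1 and M2 (x axis, log2 scale; bars, 95% counting interval; dashed lines, 2-fold). Points lie to the right of 0 in all 3 states for 8 of 10 genes, and only Ccng1, Btg2 and Phlda3 pass 2-fold, each in RM1.

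An effect of irradiation common to M0, M1 and M2 was assessed over all 6 libraries by the edgeR quasi-likelihood test with polarization in the model. The states stand in for replicates there, which leaves 2 residual degrees of freedom. Of all 11574 genes, 0.475% passed an adjusted p of 0.05, 0.346% higher, and of the members 1 passed. At an unadjusted p under 0.05, 5 members were higher, beside 7.88% of genes. Ccng1 rose with a shared log2 fold change of 0.81 (SE 0.12, edgeR adjusted p = 0.0146), in 3 of 3 states, and ranked 17 among all genes by p. Phlda3 had 0.89 (SE 0.19, edgeR adjusted p = 0.0714), Mdm2 0.59 (SE 0.13, edgeR adjusted p = 0.0714) and Plk2 0.42 (SE 0.10, edgeR adjusted p = 0.092), which did not pass, though each was higher in 3 of 3 states. Btg2 had 0.54 (SE 0.19, edgeR adjusted p = 0.239). For the other 5 members the shared log2 fold change was between 0.02 for Sesn1 and 0.20 for Sesn2, with edgeR adjusted p of 0.372 to 0.961. Which members passed depended on the libraries and the tool. Without M0 and RM0, 5 passed, beside 6.75% of genes, and without M1 and RM1, 4, beside 4.68%. Without M2 and RM2, 3 passed, beside 0.69% of genes, and with DESeq2, 4, beside 1.01%. With library totals 0 members and 0.0259% of genes passed. Ccng1 was among those passing in each of these fits except that with library totals.

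The log2 fold changes after irradiation were not of one size in the 3 states. The change in RM1 exceeded that in RM0 on the log2 scale by 1.25 for Btg2 (1.02 to 1.49), 0.80 for Phlda3 (0.31 to 1.29), 0.65 for Mdm2 (0.54 to 0.76), 0.49 for Ccng1 (0.39 to 0.60) and 0.33 for Gadd45a (0.21 to 0.45). For Cdkn1a it was smaller in RM1 than in RM0, by -0.29 (-0.34 to -0.25). With TMM scaling the interval of this difference included 0 for Plk2, Sesn1, Sesn2 and Zmat3. These values and intervals came from the scaled counts without a prior count, by a normal approximation. With the prior count of 2, the difference for Phlda3 was 0.78. With that prior count and the GC trend removed the differences were 1.22 for Btg2, 1.10 for Phlda3, 0.48 for Mdm2, 0.11 for Ccng1, 0.30 for Gadd45a, -0.15 for Cdkn1a and 0.27 for Sesn2. Scaled by library totals, the median of all genes shifted to 0.13 in RM1 against M1 and to -0.05 in RM0 against M0. The difference then rises for every member by about the same amount, which makes that of Cdkn1a smaller in size. The intervals refer to TMM scaling, so whether they include 0 with library totals is not given. They cover counting error only, and with 1 library per condition the difference between states could not be tested.

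With M1 polarization some members were higher, some were lower and Gadd45a, Sesn1 and Mdm2 did not pass the shared test. In M1 against M0, 4 members passed the 2-fold call, Plk2 and Cdkn1a higher and Btg2 and Phlda3 lower, where 22.7% of 11778 genes were called, 9.37% higher and 13.3% lower. In RM1 against RM0, 1 member passed, Plk2, higher, and 14.0% of 11713 genes did, 6.16% higher. In the edgeR test of an M1 effect shared by irradiated and non-irradiated libraries 7 of 10 members passed an adjusted p of 0.05, and so did 47.6% of all genes, 23.3% higher and 24.3% lower, so the share is not far from the background. The higher ones were Plk2 with a shared log2 fold change of 1.46 (SE 0.12), Cdkn1a with 0.90 (SE 0.15), Ccng1 with 0.61 (SE 0.14) and Zmat3 with 0.52 (SE 0.12). The lower ones were Btg2 with -1.35 (SE 0.24), Phlda3 with -1.13 (SE 0.23) and Sesn2 with -0.50 (SE 0.12). Their edgeR adjusted p ranged from 7.99e-06 for Plk2 to 0.00736 for Sesn2.

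The scaling matters for the M1 comparison. When counts were scaled by library totals, the median of all genes shifted to -0.46 in M1 against M0, to -0.25 in RM1 against RM0 and to 0.13 in RM1 against M1. The share of 2-fold calls that were higher moved from 41.3% to 16.8% in M1 against M0, from 43.9% to 25% in RM1 against RM0, from 57.8% to 70.5% in RM1 against M1 and from 52.6% to 39.7% in RM2 against M2. With that scaling Ccng1 and Zmat3 no longer passed the shared M1 test, Mdm2 passed it as lower, and the signs of Ccng1 and Sesn1 in M1 against M0 turned, to -0.08 and -0.19. Of the calls in M1 against M0 scaled by TMM, that of Cdkn1a was lost. Plk2, Cdkn1a, Btg2, Phlda3 and Sesn2 passed the shared M1 test under both scalings, in the same direction.

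With M2 polarization the differences were below 2-fold for all 10 members. In M2 against M0, 0 members and 1.44% of 11762 genes passed the 2-fold call, and in RM2 against RM0, 0 members and 2.61% of 11748 genes. The edgeR test of a shared M2 effect was passed by 0 members and 0.19% of all genes, while 1 member, Plk2, was higher at an unadjusted p under 0.05, beside 5.71% of genes. DESeq2 also called 0 members. Plk2 had a log2 fold change of 0.32 (0.23 to 0.42) in M2 against M0 and 0.42 (0.34 to 0.50) in RM2 against RM0. Mdm2 had 0.16 (0.10 to 0.23) and 0.46 (0.40 to 0.52), and Cdkn1a had -0.11 (-0.15 to -0.07) and -0.45 (-0.48 to -0.41). Without M1 and RM1 these 3 members passed the edgeR test, with 1409 genes in all against 22 with all libraries.

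**Figure D3:**
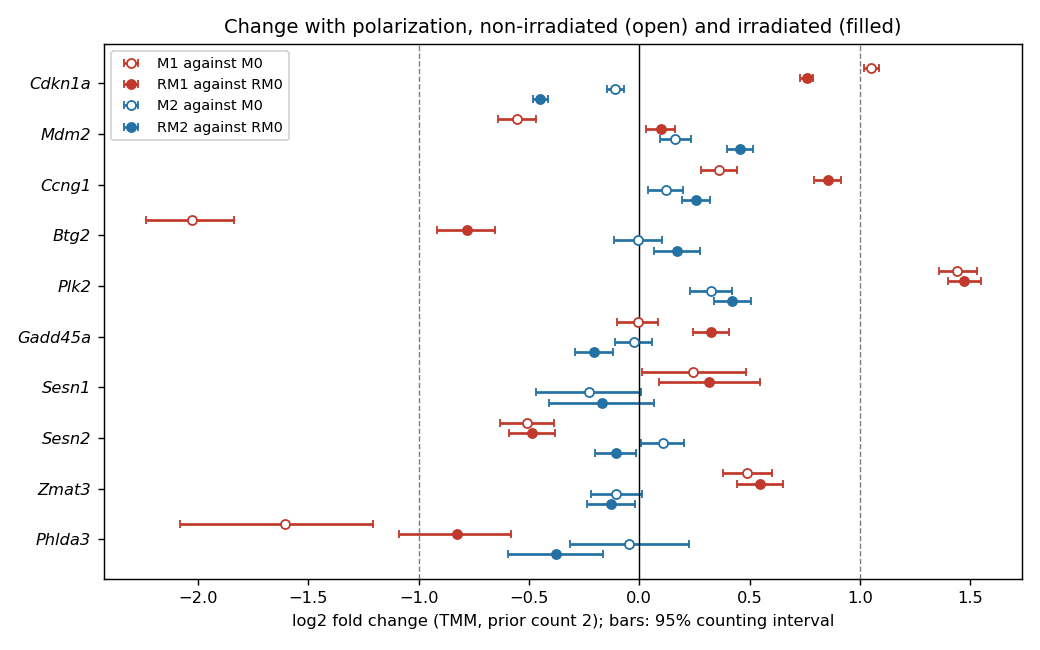
Log2 fold change of each gene with M1 (red) and M2 (blue) polarization, without radiation (open circles) and after 10 Gy (filled circles); x axis, log2 scale; bars, 95% counting interval; dashed lines, 2-fold. Plk2 lies beyond 2-fold in both M1 comparisons, Btg2 and Phlda3 lie beyond 2-fold lower without radiation and at -0.78 and -0.83 after it (-1.03 and -1.07 when scaled by library totals), and Mdm2 lies below 0 without radiation and at 0.10 after it, or at -0.15 when scaled by library totals.

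Patterns over the 6 libraries were compared by the root mean square difference of log2 CPM centred on each gene's mean, over 10190 genes whose mean count was 50 or more. The most alike members were Sesn1 and Zmat3 with a difference of 0.13, then Gadd45a and Sesn1 with 0.15. Many other genes lay as near, and Zmat3 ranked 837 among all genes by nearness to Sesn1. Btg2 and Phlda3 differed by 0.29, and Btg2 ranked 18 by nearness to Phlda3, and Phlda3 172 by nearness to Btg2. Cdkn1a and Mdm2, the best known of the list, differed by 0.77, and Btg2 and Plk2 were the least alike with 1.32. The genes with a pattern nearest to that of Cdkn1a were Dhrs1 (0.06), Kremen1 (0.07), Slc11a1 (0.07), Mpeg1 (0.09) and Hdac5 (0.09), which are likewise highest in M1 and RM1. Nearest to Mdm2 were Nfat5 (0.06), Lmbrd2 (0.06), Ap1s2 (0.08), Zfhx4 (0.08) and Slc4a7 (0.09), lowest in M1 and highest in RM2. These are descriptions over 6 libraries and carry no test.

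Other genes of the pathway were taken from lists. Trp53, which encodes p53, had 136 CPM in M0 beside 137 in RM0, 84.3 in M1 beside 68.4 in RM1, and 128 in M2 beside 115 in RM2. It was lowest in both M1 libraries, with a shared M1 log2 fold change of -0.85 (SE 0.13, edgeR adjusted p = 0.000363), and its shared change after irradiation was -0.14 (SE 0.10, edgeR adjusted p = 0.524). Cdkn2a, whose product Arf blocks Mdm2, had 0 counts in all 6 libraries. Of 15 genes for p53 and its upstream regulators, the only one called after irradiation was the damage kinase Atr in RM1, which went from 24 counts in M1 to 82 (log2 fold change 1.54, interval 0.93 to 2.32). This is 1 of 14 regulators with enough counts, near the 5.34% of all genes called in RM1. Atr had 398 counts in M0 and 335 in RM0.

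Of 13 p53 targets in cell death, 0 were called in RM0, 2 in RM1 and 0 in RM2, beside 1.54%, 5.34% and 1.97% of all genes. Trp53inp1, a p53-induced nuclear protein, went from 119 counts in M1 to 322 after irradiation, 1.25 on the log2 scale (0.96 to 1.58). Eda2r, a receptor of the TNF receptor family, went from 51 to 122 counts, 1.06 on the log2 scale (0.60 to 1.59). With the GC trend removed neither passed the 2-fold call. Of 15 targets in repair and metabolism, 0 were called in any state after irradiation. The medians in RM0, RM1 and RM2 were 0.15, 0.16 and 0.19 for the death targets and 0.12, -0.11 and -0.07 for the repair and metabolism targets. Neither list had a gene that passed the shared irradiation test with edgeR, with 4 and 2 genes higher and 1 and 1 lower at an unadjusted p under 0.05, where 7.88% of all genes were higher and 6.87% lower.

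Paralogs, the genes related in sequence to the members, were counted for comparison. Of 17 paralogs, 14 had at least 10 counts, and after irradiation 0 were called higher in any state. Called lower were 2 in RM0 (Plk1 and Gadd45g), 2 in RM1 (Gadd45b and Gadd45g) and 0 in RM2, beside 0.821%, 2.25% and 0.932% of all genes. Gadd45g had 17 counts in M0 beside 2 in RM0, 118 in M1 beside 17 in RM1, and 12 in M2 beside 6 in RM2, and fell with irradiation (shared log2 fold change -2.54, SE 0.41, edgeR adjusted p = 0.0254). It was lower in 3 of 3 states, while Gadd45a had 0.09, 0.43 and -0.09. Gadd45b had 644 counts in M0 beside 735 in RM0, 7074 in M1 beside 3621 in RM1, and 775 in M2 beside 763 in RM2. In RM1 against M1 its log2 fold change was -1.14 (-1.20 to -1.08). Plk1, the mitotic kinase, had a log2 fold change of -1.17 (-1.69 to -0.72) in RM0 against M0, where Plk2 had 0.38. Plk1 is also in the list of G2/M genes, so its call in RM0 is counted in both lists. In M1 against M0, 5 paralogs were called higher and 2 lower, beside 9.37% and 13.3% of all genes, with the largest log2 fold change, 3.88, for Gadd45b.

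Genes of the G2 and M phases, which p21 is known to lower through the DREAM complex, had negative medians. Over 18 genes the median log2 fold change was -0.81 in RM0 and -0.82 in RM2, and -0.41 in RM1 over the 15 with at least 10 counts. In RM0, 4 were called lower, where 0.821% of genes were, in RM1 4, beside 2.25%, and in RM2 2, beside 0.932%. None was called higher. Cdc20, the activator of the anaphase ligase, had 166 counts in M0 beside 79 in RM0, 48 in M1 beside 22 in RM1, and 226 in M2 beside 95 in RM2. It fell in the shared test by 1.17 on the log2 scale (SE 0.18, edgeR adjusted p = 0.0217). Ube2c, its ubiquitin-conjugating partner, had 247 and 136 counts in M0 and RM0, 72 and 28 in M1 and RM1, and 350 and 176 in M2 and RM2, and fell by 1.03 (SE 0.17, edgeR adjusted p = 0.0266). At an unadjusted p under 0.05, 15 of the 18 genes were lower in the edgeR test and 0 higher, beside 6.87% and 7.88% of all genes. With M1 polarization, 10 of the 18 genes fell in the shared test, beside 24.3% of all genes, and 0 rose.

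**Figure D4:**
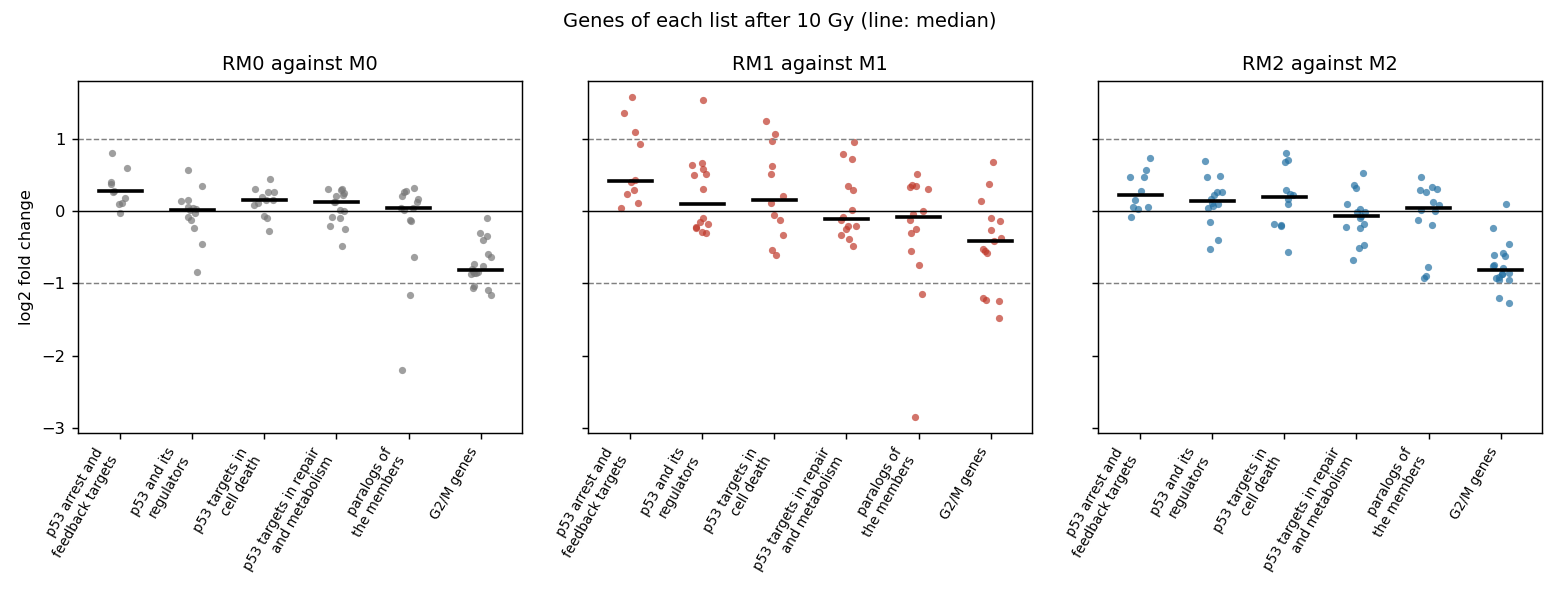
Log2 fold change after 10 Gy (y axis, log2 scale) of each gene that reached 10 counts in either library, by list, in RM0, RM1 and RM2; black lines, medians; dashed lines, 2-fold. The medians of the p53 arrest and feedback targets are 0.27, 0.42 and 0.22, and those of the G2/M genes are -0.81, -0.41 and -0.82.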

How the data were processed

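Per the labels, the authors deposited raw read counts per gene for each of 6 libraries, 1 per condition, with GRCm38 coordinates. The submitters' processing notes name Trimmomatic 0.36, HISAT2 2.2.1, HTSeq 0.11.3 and mm10, and the strand setting is not given in the sources used here. Only counts were used. They were scaled by TMM in edgeR 4.0.16 (R 4.3.3), from genes with 10 counts or more in 3 or more libraries, and 2 was the prior count of log2 fold changes. A call needed a 2-fold difference and 10 counts in 1 of the 2 libraries. Intervals at 95% are exact Clopper-Pearson intervals for single log2 fold changes and normal approximations from counts without a prior for differences between states. Like the limit of 3 counts for a count of 0, they cover counting error only. PCR copies were not told apart. Shared effects were tested with edgeR's quasi-likelihood test (polarization and irradiation as terms) with Benjamini-Hochberg adjustment over 11574 genes at 0.05, which measures only the spread among these libraries. In simulated data with 200 of 11574 genes changed at a coefficient of variation of 0.1, the irradiation test recovered 51% at a log2 fold change of 0.5 with 2 false calls, 93% at 1 with 12, and 100% at 2 with 7. There each changed gene had the same change in all 3 states. The changes of several members differed between states, so these rates do not carry over to them.

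The members and lists were chosen with earlier results of these data known. The genes named are the members, Trp53, up to 3 called genes of each list in the comparison described and those passing the shared irradiation test, the 5 nearest patterns to Cdkn1a and to Mdm2, and marker checks. Cdkn2a, Dcn, Col1a2, Col3a1, Bax and Chek2 fall outside that rule and were picked with their values known. Lists covered p53 regulators, p53 targets in cell death, in repair and metabolism, paralogs, G2/M genes, and markers of macrophages, fibroblasts, lymphocytes and M1 cells. Plk1 is in the lists of paralogs and of G2/M genes, and Mdm4 in those of paralogs and of p53 regulators. A check of M2 markers is not reported here. Tigar and Adgre1 were matched through RefSeq synonyms. Lengths and GC content came from GENCODE M21 and promoters from RefSeq (GRCm38.p6). Alternatives were DESeq2 1.42.0 size factors or test, library totals, a prior count of 0.25, a 1.5-fold threshold, a minimum of 50 counts, no filter, no polarization term and each state left out. Removal of the GC trend (lowess, span 0.3, GC known for 99.1% of tested genes) was chosen after seeing the data. Tables and figures were made in Python 3.11.15 (pandas 2.3.3, scipy 1.17.1, matplotlib 3.10.9).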

Additional observations from a re-analysis of the deposited data

Results flagged for a closer look

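For a pair of members the effect of polarization had opposite signs without and after radiation, with both counting intervals excluding 0. Gadd45a with M1 polarization (-0.007 and 0.33) and Btg2 with M2 polarization (-0.005 and 0.17) also changed sign. Their intervals without radiation included 0. Mdm2 had a log2 fold change of -0.55 in M1 against M0 and 0.10 in RM1 against RM0. Scaled by library totals the second value was -0.15, so the signs then matched. Sesn2 had 0.11 in M2 against M0 and -0.11 in RM2 against RM0, and with the GC trend removed both were positive, at 0.19 and 0.15. With 1 library per condition none of these differences was tested.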

How the results depend on the processing

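No member has a replicate, the states serve as replicates in the shared tests, and depth limits Sesn1 and Phlda3 most. A 1.5-fold threshold called 2 members in RM0 (beside 5.95% of genes), 1 in RM2 (7.19%) and 5 in RM1 against RM0 (32.6%), and library totals called 3 there (17%). The members passing the shared irradiation test (1 with all libraries) ranged from 3 to 5 and the genes (55) from 77 to 754 when the M0, M1 or M2 pair of libraries was left out. They numbered 0 and 3 with library totals, 3 and 156 with no filter, and 4 and 115 with DESeq2. The genes alone numbered 35 with at least 50 counts and 24 with the GC trend removed. Samples share no replicate number that pairs them, and the state is the block. With no replicate block, that is no polarization term, 0 members and 0 genes passed. For M2 (22 genes) the numbers were 3 with library totals, 56 with no filter, 14 with at least 50 counts, 6 with the GC trend removed, 41 with DESeq2, and 1409 genes and 3 members without M1 and RM1. Some shared log2 fold changes reversed. With library totals the M1 values of Gadd45a and Sesn1 were -0.17 and -0.061. The M2 value of Sesn2, 0.00 with all libraries, was -0.011 with DESeq2 size factors, -0.000648 without M1 and RM1 and -0.00674 with DESeq2. With the GC trend removed, the M2 values of Ccng1 and Phlda3 were -0.055 and 0.0073. The cause was not tested for any of these. Calls in other lists also moved. With library totals RM1 had 1 paralog and 1 repair target called, beside 5.98% of all genes, and RM2 had 4 G2/M genes, beside 2.09%. With GC removal RM1 had 0 death targets and 1 paralog, beside 4.74% of all genes, and RM2 had 4 G2/M genes, beside 1.98%. With a prior count of 0.25, RM2 had 1 paralog, beside 2.63% of all genes. The other counts of members called or passing, under these alternatives, stayed within 1.5 times, and 8 members were positive after irradiation in all 3 states under DESeq2 size factors, library totals, a prior count of 0.25 and GC removal.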

Other observations

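In M1 against M0, 2 of 13 p53 targets in cell death were called, Fas and Pidd1, beside 22.7% of all genes, and 3 passed the shared M1 test, beside 47.6%. Fas, the death receptor, had 132 counts in M0, 974 in M1, 179 in RM0 and 875 in RM1, log2 fold changes of 3.29 in M1 against M0 and 2.51 in RM1 against RM0. Pidd1, a death-domain adaptor, had 75, 18, 61 and 22 counts in the same order, with log2 fold changes of -1.55 and -1.17. Both passed the shared M1 test with edgeR, as did Bax. Of 14 measured paralogs, 5 were called higher and 2 lower, among them Plk3, a paralog of Plk2, with 1025, 3211, 1227 and 2168 counts and log2 fold changes of 2.07 and 1.05. Of 14 measured upstream regulators, 1 was called higher (Hipk2, 1.43) and 3 lower, Atr with -3.54, Chek1 with -1.97 and Chek2 with -1.33 in M1 against M0. All these counts stand beside the same 22.7% of genes, 9.37% higher and 13.3% lower.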
